A study of Mus musculus with 11 samples.

Results

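The 40 genes described here are ligands, latent binding proteins, receptors, Smads, antagonists and targets of the TGF-beta and BMP pathways, chosen by name, out of 55421 genes counted in articular cartilage of mouse knees. All 40 were found by symbol in the count files and all passed the filter on low counts, which left 18125 genes. TGF-beta, activin and BMP ligands bind pairs of type I and type II serine/threonine kinase receptors, which phosphorylate Smad proteins. Smad2 and Smad3 serve TGF-beta and activin, whereas Smad1, Smad5 and Smad9 serve BMPs, and both sets act in the nucleus with Smad4. In cartilage, TGF-beta is stored in the matrix in a latent form and is known to hold articular chondrocytes in their mature state, while BMPs and GDF5 drive chondrocyte and joint formation.

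Bulk poly(A) RNA was sequenced from knees of C57BL/6 mice of 14 weeks of age, 4 weeks after surgery in which the medial meniscus was destabilized (DMM), a common osteoarthritis model. Operated knees of mice labelled c-FosDCh gave 4 libraries. The label is taken to mean mice that lack Fos in chondrocytes; the promoter that drives the deletion is not given in the sources used here. Operated knees of c-FosWT mice, the wild type, gave 3 libraries and their unoperated contralateral knees gave 4, with 3 animals giving both knees. None of the 11 libraries came from a contralateral knee of a c-FosDCh mouse. Operation and genotype cannot be told apart when c-FosDCh DMM is set against c-FosWT contralateral.

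Gene counts per library ranged from 13593454 to 18280558. Fos itself was at 19.4, 10.9, 29.5 and 33 CPM in libraries labelled c-FosDCh DMM, against 12.1, 14.1 and 9.01 CPM in c-FosWT DMM and 17.1, 24.8, 22 and 15.7 CPM in c-FosWT contralateral libraries. Its fitted level was not lower in the libraries with the c-FosDCh label (log2 fold change 0.98 ± 0.35 against c-FosWT DMM, edgeR adjusted p = 0.0736; DESeq2 adjusted p = 0.0341), so the directions given below follow the genotype labels; which part of the gene is deleted is not given in the sources used here. CPM, the usual depth-scaled counts, were taken over TMM-adjusted library totals. The 15 cartilage markers had summed levels of 22031 to 78561 CPM in c-FosDCh DMM, 6673 to 17889 CPM in c-FosWT DMM and 21256 to 38577 CPM in contralateral libraries. Erythroid markers summed to 447 to 4262, 7585 to 12490 and 2292 to 6655 CPM in the same order of groups. Cartilage markers were uneven: in c-FosDCh DMM Prg4 reached 38727 CPM, and Matn1 and Matn3 fell to 0.073 CPM. Means of Matn1, Matn3, Col9a1 and Cnmd were lower in c-FosDCh DMM than in c-FosWT DMM, and those of the other 11 were higher.

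Of the 40 pathway genes, 17 were higher in c-FosDCh DMM than in c-FosWT DMM cartilage. None of the 40 was lower in that comparison, in which 14.4% of all tested genes passed (10.6% higher and 3.79% lower). Those that passed were the ligands Tgfb3, Bmp2, Gdf5 and Gdf10, the latent binding protein Ltbp3, the receptors Tgfbr3, Bmpr1a, Bmpr1b and Acvr1, the signal transducers Smad3, Smad4 and Smad9, the corepressor Skil, the inhibitors Chrd and Bambi, and the targets Id1 and Id2. The median log2 fold change over the 40 members was 1.0, against -0.01 over all genes, and 39 values were positive (36 when scaled by library totals alone), against 49.5% of all genes. DESeq2 called 26 members and 29.6% of all genes. In bulk samples, fewer cells of a type and less RNA per cell cannot be told apart.

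These calls came from edgeR's quasi-likelihood test over all 11 libraries at a Benjamini-Hochberg adjusted p under 0.05. The lowest adjusted p over all genes was 0.0332. Genes with unlike unadjusted edgeR p share it, such as Ltbp3 (0.000404) and Bmp2 (0.00118). The calls were lost (0 of 40) without contralateral replicate 1 or 2, c-FosWT DMM replicate 2 or 3, or c-FosDCh DMM replicate 3 or 4. Over all genes 0 passed in the same fits, or 1 without contralateral replicate 2. Without contralateral replicate 3, 10 members were left, and 1355 of 17930 genes. In a fit of the 2 DMM groups alone the count was again 0 of 40, and 0 over all genes. Both counts were 0 too with a marrow or cartilage score added as a covariate. The median log2 fold change of the members in these fits was 1.01, 0.44 and 0.8.

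**Figure D1:**
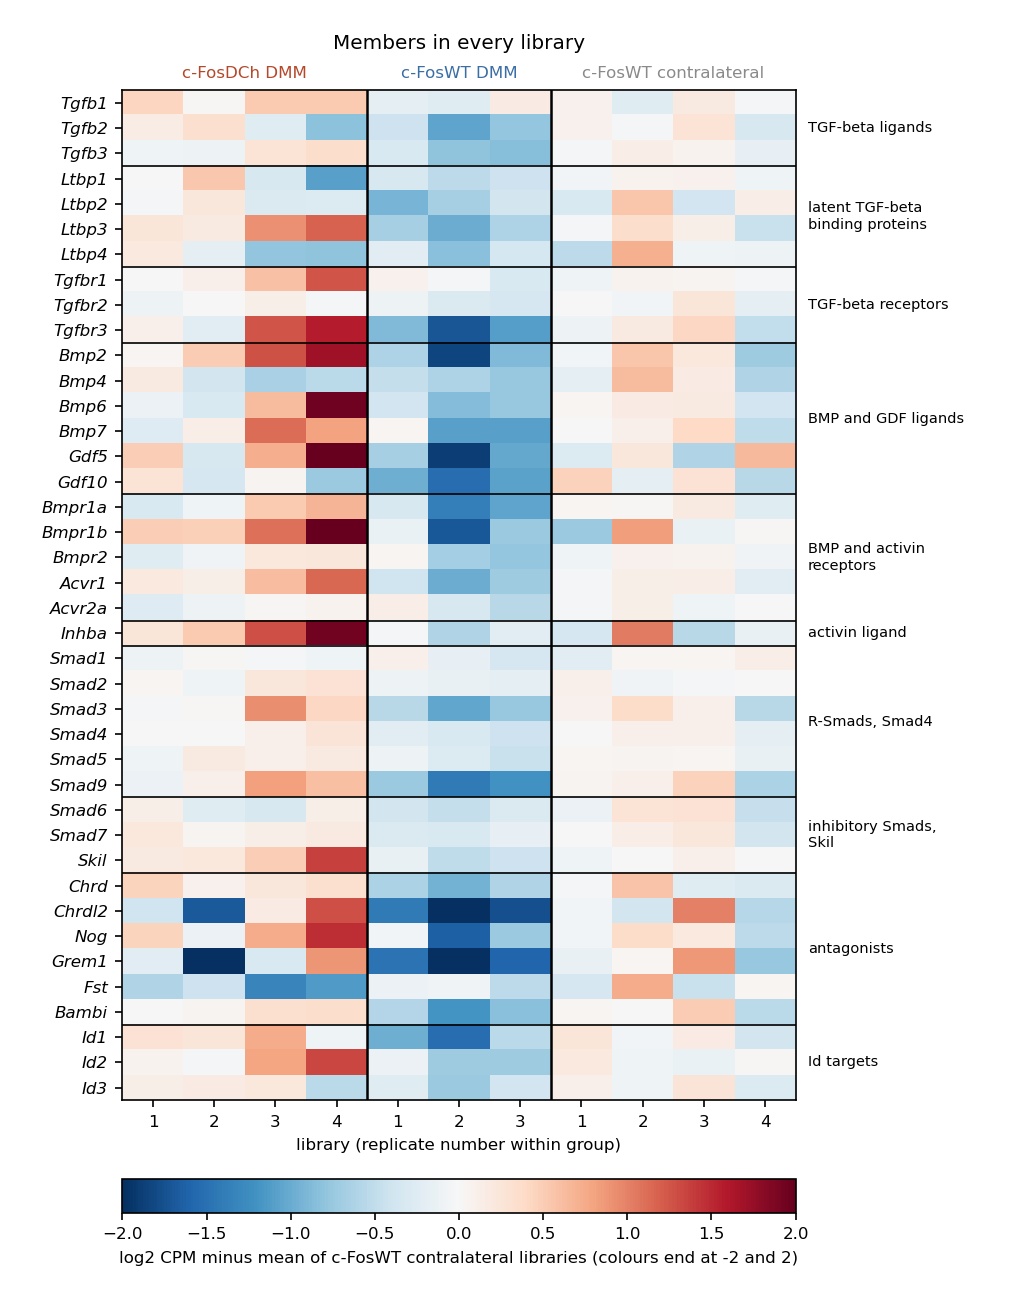
Level of each of the 40 members (rows, by role) in each of the 11 libraries (columns, by group), as log2 CPM minus the mean of the 4 contralateral libraries; red is higher, blue lower, and colours end at -2 and 2. The 3 c-FosWT DMM columns are blue for most members, and c-FosDCh DMM replicates 3 and 4 hold most of the dark red.

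Across single libraries, the median of the 40 members relative to the contralateral mean was 0.04, 0.02, 0.25 and 0.35 on the log2 scale in the c-FosDCh DMM libraries, in replicate order. It was -0.31, -0.82 and -0.66 in the c-FosWT DMM libraries and -0.03, 0.1, 0.12 and -0.23 in the contralateral ones. A marrow score, which averages log2 CPM over the erythroid and granulocyte markers, was 8.19, 8.18, 6.73 and 4.54 in the c-FosDCh DMM libraries, 8.71, 9.03 and 9.49 in c-FosWT DMM libraries and 7.94, 7.25, 7.22 and 8.84 in contralateral libraries. Within each group the library with the lowest marrow score had the highest member median. The library with the highest score had the lowest median in the contralateral group (replicate 4) but not in the DMM groups, where that score was in replicate 1 of c-FosDCh DMM and replicate 3 of c-FosWT DMM and the lowest median in replicate 2 of each. The mean log2 CPM of the cartilage markers came to 7.66, 7.86, 8.83 and 8.71 in c-FosDCh DMM, 8.63, 6.73 and 7.74 in c-FosWT DMM, and 8.75, 7.85, 8.45 and 8.77 in contralateral libraries.

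**Figure D2:**
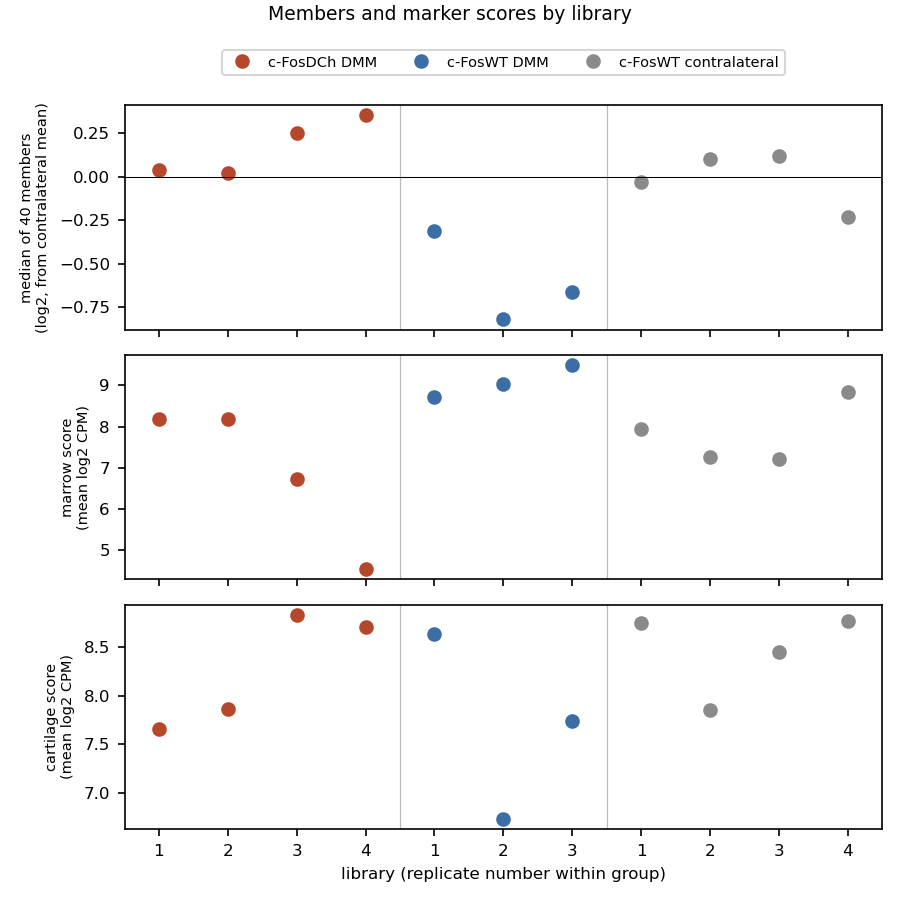
Per library, the median log2 level of the 40 members relative to the contralateral mean (top), the marrow score (middle) and the cartilage score (bottom), both as mean log2 CPM of marker genes. The 3 c-FosWT DMM libraries lie below 0 in the top panel and between 8.71 and 9.49 in the middle one.

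Between the DMM groups, 9 of 9 tested erythroid markers had negative values and 5 of them were lower in c-FosDCh DMM, and 10 of 10 granulocyte markers had negative values with 0 passing. The granulocyte sum was 296 to 10473 CPM in c-FosDCh DMM, 7210 to 13542 CPM in c-FosWT DMM and 3047 to 9643 CPM in contralateral libraries. Macrophage and osteoclast markers (10 of 10 negative, 2 lower) summed to 709 to 2273, 2855 to 3346 and 2075 to 3086 CPM, and endothelial markers (8 of 8 negative, 0 passing) to 93.8 to 381, 547 to 601 and 359 to 536 CPM in the same order. B cell markers (8 of 8 negative) and skeletal muscle markers (10 of 10 negative) had 0 passing, with muscle sums of 91.5 to 1141, 250 to 8801 and 53.3 to 5858 CPM. Osteoblast and osteocyte markers had 5 of 10 positive values with 1 higher, and fibroblast markers 6 of 10 with 0 passing. Of 15 cartilage markers 11 had positive values and 5 were higher. No marker of these lists was at 0 in every library.

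Promoters of the members were read for letters bound by AP-1, the factor that Fos forms with Jun proteins, and by Smads. Windows from 250 bases before to 50 bases after a RefSeq gene start (GRCm38.p6) were at hand for 26 of the 40 members (34 windows). The AP-1 motif TGANTCA, read on both strands, was in 1 of 34 member windows, that of Ltbp3, and in 7.81% of all 32851 windows. The GC-rich Smad motif GGCGCC was in 12 of 34 member windows (35.3%), belonging to 10 members, against 11.9% of all windows; the median GC content was 64.7% in member windows and 52.7% in all. The palindromic Smad motif GTCTAGAC was in the window of Smad6 alone among members and in 0.213% of all windows. The cyclic AMP response motif TGACGTCA, bound by relatives of AP-1, was found in Ltbp1 among the members and in 1.79% of all windows. Shown are the only AP-1 match (Ltbp3, chr19:5740650-5740949, forward strand), GGCGCC matches in the called members Smad9 (chr3:54755332-54755631, forward strand) and Id2 (chr12:25096043-25096342, reverse strand), and the palindromic match in Smad6 (chr9:64022010-64022309, reverse strand). Each is written 5′ to 3′ on the gene's strand, with the matched letters in capitals; no 2 of the motifs overlap in them. A match is a description of the letters and not evidence of binding.
Ltbp3: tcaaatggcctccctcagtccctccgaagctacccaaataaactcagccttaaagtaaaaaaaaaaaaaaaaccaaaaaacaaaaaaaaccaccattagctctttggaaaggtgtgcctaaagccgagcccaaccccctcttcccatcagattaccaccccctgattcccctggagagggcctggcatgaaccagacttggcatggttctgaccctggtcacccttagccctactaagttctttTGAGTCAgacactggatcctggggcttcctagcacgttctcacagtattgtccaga
Smad9: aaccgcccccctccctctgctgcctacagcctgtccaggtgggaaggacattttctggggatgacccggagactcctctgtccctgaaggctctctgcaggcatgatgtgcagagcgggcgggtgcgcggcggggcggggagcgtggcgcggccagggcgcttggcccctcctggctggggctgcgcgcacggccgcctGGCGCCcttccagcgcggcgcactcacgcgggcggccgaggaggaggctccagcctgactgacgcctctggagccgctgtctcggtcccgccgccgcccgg
Id2: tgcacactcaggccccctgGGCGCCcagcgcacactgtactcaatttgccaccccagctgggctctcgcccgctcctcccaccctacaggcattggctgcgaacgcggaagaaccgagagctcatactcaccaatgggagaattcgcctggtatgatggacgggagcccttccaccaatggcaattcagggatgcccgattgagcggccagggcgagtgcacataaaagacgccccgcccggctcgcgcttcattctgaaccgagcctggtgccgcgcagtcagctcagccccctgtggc
Smad6: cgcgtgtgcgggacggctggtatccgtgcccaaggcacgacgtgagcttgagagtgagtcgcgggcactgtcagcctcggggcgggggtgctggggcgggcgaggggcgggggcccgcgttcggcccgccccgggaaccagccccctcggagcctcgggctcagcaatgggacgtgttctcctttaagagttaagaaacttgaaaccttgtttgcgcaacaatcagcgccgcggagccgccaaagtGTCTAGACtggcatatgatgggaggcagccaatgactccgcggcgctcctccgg

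Among the TGF-beta ligands, Tgfb3 was higher in c-FosDCh DMM, and Tgfb1 and Tgfb2 did not pass. Tgfb3 (chromosome 12, 86056745 to 86079041, reverse strand) had 61.4, 61, 78.8 and 83.3 CPM in c-FosDCh DMM libraries, against 53.1, 37.2 and 36.2 CPM in c-FosWT DMM and 63.9, 71.3, 68.3 and 58.3 CPM in contralateral libraries. All c-FosDCh DMM libraries were above all c-FosWT DMM libraries, which were also below all contralateral ones. The log2 fold change between the DMM groups was 0.75 ± 0.17 (SE, edgeR adjusted p = 0.0332), a 1.69-fold difference. Tgfb1 averaged 245 ± 37.3 CPM in c-FosDCh DMM, 177 ± 27.7 CPM in c-FosWT DMM and 188 ± 23 CPM in contralateral libraries (SD). Its log2 fold change of 0.47 between the DMM groups had an adjusted p of 0.0701. Tgfb2 averaged 71.4 ± 22.9, 45.7 ± 10.3 and 76.6 ± 13 CPM in the same order (0.64, adjusted p = 0.103).

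Per kilobase of merged exons, Tgfb1 was the most abundant of the 3 TGF-beta ligands in every group. It made up 52.3 to 62.5% of their summed level in c-FosDCh DMM libraries, 56.2 to 69.3% in c-FosWT DMM and 48 to 57.1% in contralateral libraries. Tgfb3 made up 22 to 28.8%, 17.9 to 27% and 25.9 to 32.3%. These ranges overlapped between the DMM groups.

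**Figure D3:**
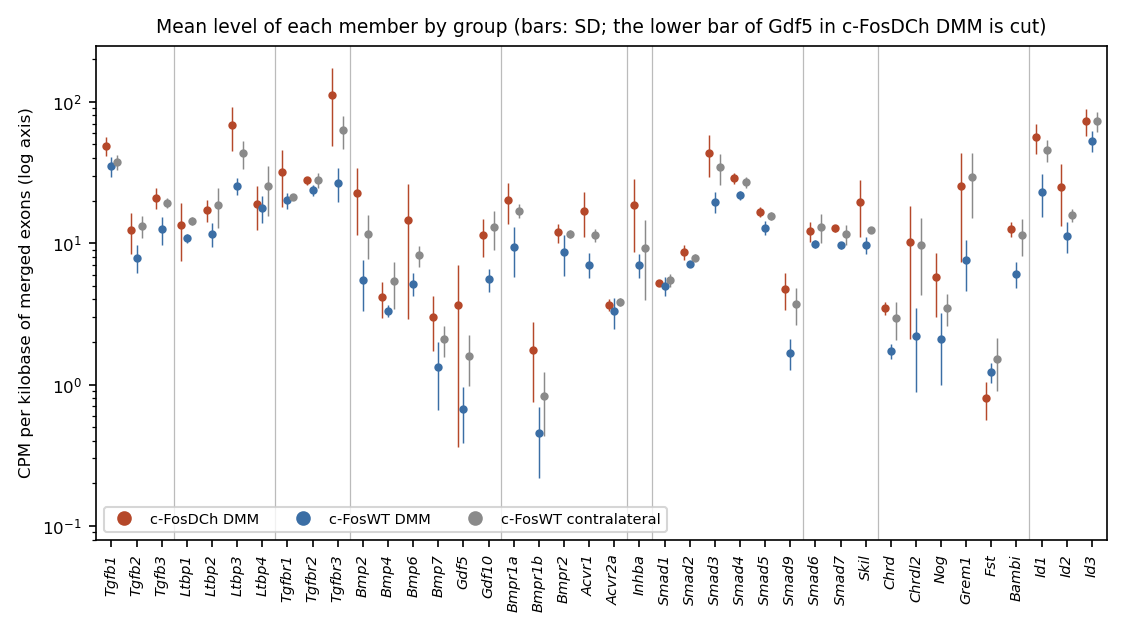
Mean level of each member in CPM per kilobase of merged exons (log axis) by group, with SD bars; groups run c-FosDCh DMM, c-FosWT DMM, c-FosWT contralateral. Tgfbr3, at 111 in c-FosDCh DMM and 62.7 in contralateral libraries, and Id3, at 73 and 72.7, are among the highest members, and Bmpr1b and Gdf5 are among the lowest in c-FosWT DMM.

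Latent TGF-beta binding proteins anchor the latent ligand to the matrix. Ltbp3 (chromosome 19, 5740904 to 5758532, forward strand) was higher in c-FosDCh DMM, while the other 3 did not pass. Its levels were 453, 434, 728 and 871 CPM in c-FosDCh DMM libraries, against 244, 193 and 252 CPM in c-FosWT DMM and 377, 490, 417 and 283 CPM in contralateral libraries. The c-FosWT DMM libraries were below every library of both other groups, and c-FosDCh DMM replicates 3 and 4 were above all others. The log2 fold change between the DMM groups was 1.44 ± 0.28 (edgeR adjusted p = 0.0332, 2.71-fold). Ltbp1 (143 ± 63.5 CPM in c-FosDCh DMM, 115 ± 7.7 CPM in c-FosWT DMM), Ltbp2 (140 ± 24.3 and 94.9 ± 18.4 CPM) and Ltbp4 (123 ± 42.3 and 114 ± 24.2 CPM) had log2 values of 0.31, 0.56 and 0.1, with adjusted p of 0.419, 0.116 and 0.821. Within the family, Ltbp3 held 43.2 to 73.1% of the level per kilobase in c-FosDCh DMM, 37.9 to 39.2% in c-FosWT DMM and 35.9 to 48% in contralateral libraries, so that the DMM groups did not overlap in this share.

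Of the TGF-beta receptors, Tgfbr3, the coreceptor betaglycan that presents ligand to the signalling receptors, was higher in c-FosDCh DMM. Tgfbr3 (chromosome 5, 107106570 to 107289629, reverse strand) was at 426, 346, 952 and 1191 CPM in c-FosDCh DMM, 216, 122 and 187 CPM in c-FosWT DMM, and 374, 451, 533 and 284 CPM in contralateral libraries. As with Ltbp3, replicates 1 and 2 of c-FosDCh DMM lay within the contralateral range and replicates 3 and 4 lay above it. The log2 fold change between the DMM groups was 2.06 ± 0.45 (edgeR adjusted p = 0.0332, 4.16-fold). The signalling receptors did not pass: Tgfbr1, the type I receptor, had 207 ± 90.1 CPM in c-FosDCh DMM and 132 ± 17.5 CPM in c-FosWT DMM (log2 0.65, adjusted p = 0.105). Tgfbr2, the type II receptor, had 227 ± 14.8 and 193 ± 17 CPM (0.24, adjusted p = 0.174). A gene on the same strand, Gm43422, shares 297 bases of exon with Tgfbr3.

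Among 6 BMP and GDF ligands, Bmp2, Gdf5 and Gdf10 were higher in c-FosDCh DMM and Bmp4, Bmp6 and Bmp7 did not pass. Bmp2, which induces cartilage and bone formation (chromosome 2, 133552159 to 133562885, forward strand), had 40.7, 56.5, 96.6 and 130 CPM in c-FosDCh DMM, 25.8, 11.1 and 21.6 CPM in c-FosWT DMM and 38.4, 58.3, 45.9 and 24.3 CPM in contralateral libraries. All 4 c-FosDCh DMM values were above the c-FosWT DMM values, and replicates 3 and 4 were above the contralateral ones too. The log2 fold change was 2.05 ± 0.46 (edgeR adjusted p = 0.0332, 4.15-fold). Gdf5, a ligand required for joint formation, was low, at 4.96, 2.79, 5.88 and 20.2 CPM in c-FosDCh DMM, 2.17, 0.859 and 1.67 CPM in c-FosWT DMM and 2.88, 4.14, 2.27 and 5.53 CPM in contralateral libraries. Its c-FosDCh DMM mean rested mostly on replicate 4, its lowest library held 15 counts, and its log2 fold change was 2.42 ± 0.68 (edgeR adjusted p = 0.0442), or 1.53 without replicate 4.

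Gdf10, also called Bmp3b, had 78.4, 51.7, 68.1 and 38.8 CPM in c-FosDCh DMM, 33, 22.6 and 31.1 CPM in c-FosWT DMM and 89.8, 57.1, 79.8 and 44.1 CPM in contralateral libraries. Unlike Bmp2, it was lowest in replicate 4 among the c-FosDCh DMM libraries, and its group mean there was below the contralateral mean (59.2 ± 17.5 against 67.7 ± 20.8 CPM). The log2 fold change between the DMM groups was 1.03 ± 0.30 (edgeR adjusted p = 0.0457). Bmp6, with 29.1, 25.7, 49.4 and 123 CPM in c-FosDCh DMM, 24.4, 17.3 and 18.7 CPM in c-FosWT DMM and 32.6, 35.5, 36 and 24.2 CPM in contralateral libraries, had a log2 value of 1.49 (adjusted p = 0.0617). Bmp7 averaged 12.1 ± 5.07 CPM in c-FosDCh DMM and 5.33 ± 2.69 CPM in c-FosWT DMM (1.18, adjusted p = 0.0678). Bmp4 averaged 9.32 ± 2.63 and 7.5 ± 0.737 CPM (0.31, adjusted p = 0.429). Bmp2 made up 43.3 to 57.1% of the level per kilobase of the 4 BMP ligands in c-FosDCh DMM libraries, 26.4 to 41% in c-FosWT DMM and 38.3 to 45.9% in contralateral libraries.

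The BMP type I receptors Bmpr1a, Bmpr1b and Acvr1 were higher in c-FosDCh DMM, and the type II receptors Bmpr2 and Acvr2a did not pass. Acvr1, also called ALK2 (chromosome 2, 58388644 to 58567157, reverse strand), had 62.8, 59.2, 83.6 and 122 CPM in c-FosDCh DMM, 41.3, 27.5 and 33.5 CPM in c-FosWT DMM, and 53.8, 59.4, 59.8 and 46.8 CPM in contralateral libraries. The c-FosWT DMM libraries were below every other library (a log2 fold change 1.26 ± 0.25, edgeR adjusted p = 0.0332). Bmpr1a was at 86.7, 101, 155 and 172 CPM in c-FosDCh DMM, 85.9, 41.7 and 51.7 CPM in c-FosWT DMM and 110, 110, 121 and 90.7 CPM in contralateral libraries. The DMM groups nearly met, at 86.7 and 85.9 CPM (1.1 ± 0.29, edgeR adjusted p = 0.0392). Bmpr1b, known for its part in digit cartilage, was low, at 6.5, 6.39, 9.95 and 19.4 CPM in c-FosDCh DMM, 4.16, 1.32 and 2.67 CPM in c-FosWT DMM and 2.69, 8.28, 4.18 and 4.63 CPM in contralateral libraries. Its log2 fold change was 1.95 ± 0.55 (edgeR adjusted p = 0.0431), and 2 of 4 c-FosDCh DMM libraries were above every contralateral one. Bmpr2 averaged 214 ± 32.9 CPM in c-FosDCh DMM and 155 ± 50.5 CPM in c-FosWT DMM (0.47, adjusted p = 0.112), and Acvr2a 20.9 ± 2.05 and 18.7 ± 4.65 CPM (0.16, adjusted p = 0.456).

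Inhba encodes the subunit of activin A, a ligand that signals through Smad2 and Smad3. It had 63.7, 76.7, 131 and 203 CPM in c-FosDCh DMM, 52.4, 35.4 and 46.4 CPM in c-FosWT DMM, and 42.5, 110, 36.5 and 48.3 CPM in contralateral libraries. The DMM groups did not overlap, but the spread was wide and the log2 fold change of 1.41 ± 0.48 did not pass (edgeR adjusted p = 0.0661). Fst, follistatin, which binds activin and blocks it, was the one member with a negative value between the DMM groups: it averaged 3.69 ± 1.12 CPM in c-FosDCh DMM, 5.61 ± 0.916 CPM in c-FosWT DMM and 6.96 ± 2.86 CPM in contralateral libraries (-0.6, adjusted p = 0.186).

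**Figure D4:**
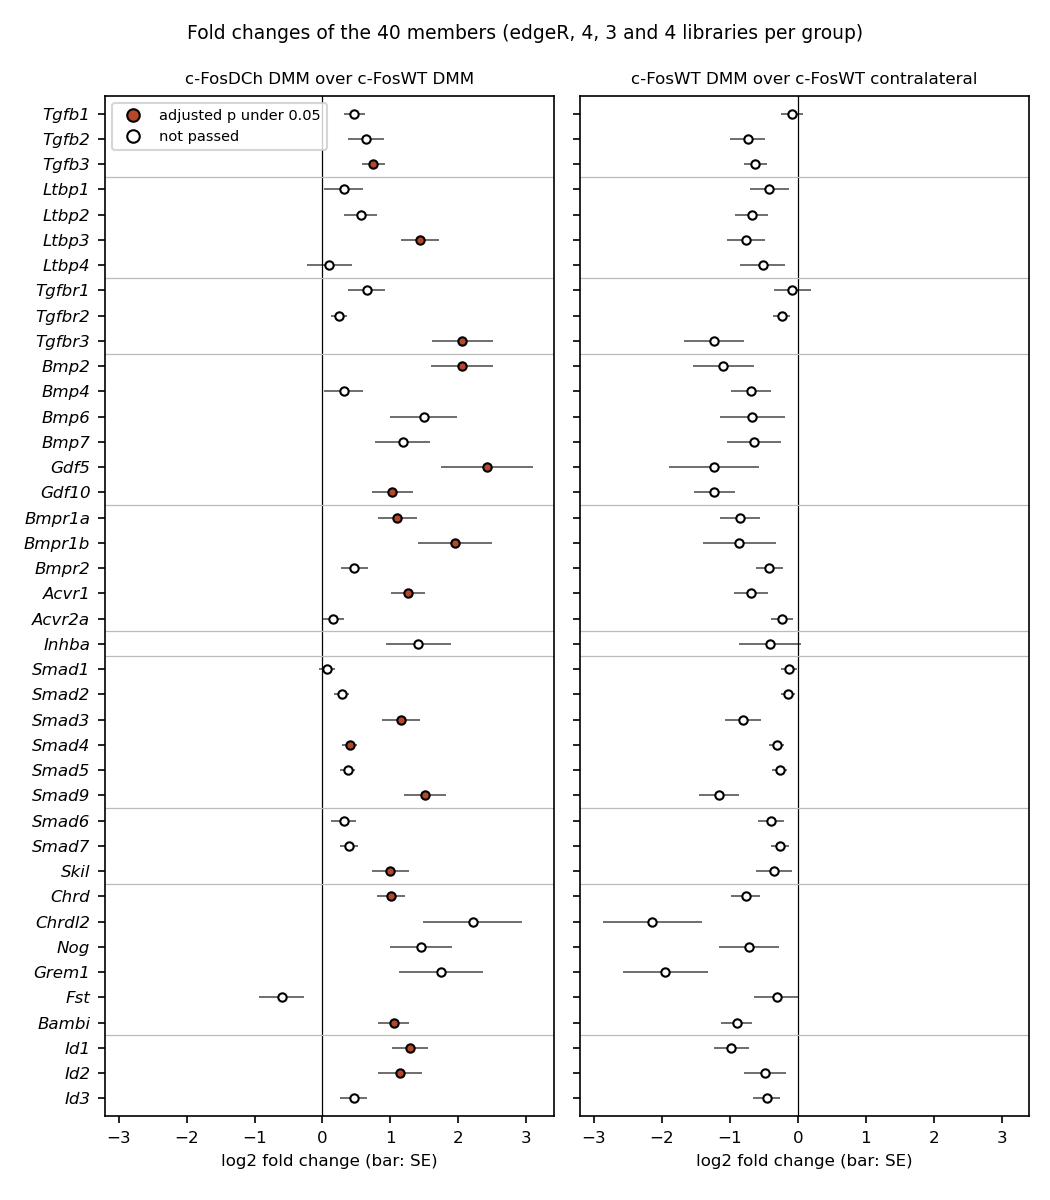
Log2 fold change of each member with its SE (edgeR), for c-FosDCh DMM over c-FosWT DMM (left) and c-FosWT DMM over c-FosWT contralateral (right); filled points passed an adjusted p of 0.05. On the left 39 of 40 points lie right of 0 (36 when scaled by library totals alone) and 17 are filled; on the right all 40 lie left of 0 and none is filled. Both panels use the same c-FosWT DMM libraries.

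Among the Smads that carry the signal, Smad3, Smad4 and Smad9 were higher in c-FosDCh DMM, and Smad1, Smad2 and Smad5 did not pass. Smad9 (chromosome 3, 54755582 to 54801257, forward strand), of the BMP branch, was at 17.8, 20.9, 34.3 and 29.4 CPM in c-FosDCh DMM, 11.5, 7.21 and 8.29 CPM in c-FosWT DMM, and 20.1, 20.9, 26.8 and 12.5 CPM in contralateral libraries. Its log2 fold change was 1.51 ± 0.31 (edgeR adjusted p = 0.0332), with the c-FosWT DMM libraries below every other library. Smad1 and Smad5 of the same branch averaged 32.9 ± 1.39 and 124 ± 10.7 CPM in c-FosDCh DMM, against 31.3 ± 4.93 and 95.9 ± 11.5 CPM in c-FosWT DMM (0.07 and 0.37, adjusted p = 0.669 and 0.0538). Smad9 made up 14.4 to 22.5% of the level per kilobase of these 3 Smads in c-FosDCh DMM, 7.02 to 9.57% in c-FosWT DMM and 10.4 to 18.8% in contralateral libraries. The c-FosWT DMM shares lay below those of both other groups.

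Smad3, of the TGF-beta branch (chromosome 9, 63646767 to 63757994, reverse strand), had 182, 188, 353 and 246 CPM in c-FosDCh DMM, 127, 89.7 and 109 CPM in c-FosWT DMM and 197, 238, 198 and 127 CPM in contralateral libraries. The log2 fold change between the DMM groups was 1.16 ± 0.28 (edgeR adjusted p = 0.0337). Its share of the Smad2 and Smad3 level per kilobase was 80.2 to 87.4% in c-FosDCh DMM, 69.5 to 75.6% in c-FosWT DMM and 74.2 to 85.1% in contralateral libraries. Smad2 averaged 75.7 ± 8.99 CPM in c-FosDCh DMM and 62.5 ± 2.1 CPM in c-FosWT DMM (0.28, adjusted p = 0.0857). Smad4, the shared partner, varied little: 99.7, 99.8, 108 and 119 CPM in c-FosDCh DMM, 86.4, 81.1 and 75.1 CPM in c-FosWT DMM, and 99.2, 107, 107 and 88.2 CPM in contralateral libraries. Its small log2 fold change of 0.4 ± 0.11 passed (edgeR adjusted p = 0.0401).

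Smad6 and Smad7, inhibitory Smads that the pathways induce as feedback, did not pass, while Skil did. Skil, a corepressor that holds Smad complexes inactive (chromosome 3, 31095058 to 31122577, forward strand), was at 136, 139, 169 and 310 CPM in c-FosDCh DMM, 108, 84.1 and 90.2 CPM in c-FosWT DMM and 113, 119, 129 and 119 CPM in contralateral libraries. Its log2 fold change between the DMM groups was 1.0 ± 0.27 (edgeR adjusted p = 0.039), or 0.65 without c-FosDCh DMM replicate 4. All 4 c-FosDCh DMM libraries were above all libraries of both other groups. Smad7 averaged 57.2 ± 2.75 CPM in c-FosDCh DMM, 43.6 ± 2.38 CPM in c-FosWT DMM and 52.4 ± 8.76 CPM in contralateral libraries (0.39, adjusted p = 0.0633), and Smad6 39.2 ± 6.25, 31.7 ± 2.09 and 42 ± 9.96 CPM (0.31, adjusted p = 0.24).

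Among antagonists, Chrd and Bambi were higher in c-FosDCh DMM, and Chrdl2, Nog and Grem1 had larger values that did not pass. Chrd, chordin, which binds BMPs outside the cell (chromosome 16, 20733127 to 20742384, forward strand), had 24.4, 19, 21 and 22.5 CPM in c-FosDCh DMM, 11.5, 9.22 and 11.7 CPM in c-FosWT DMM and 17.4, 26.7, 15.2 and 14.6 CPM in contralateral libraries. Bambi, a receptor-like protein with no kinase that blocks signalling, had 56.2, 57.9, 70 and 71.6 CPM in c-FosDCh DMM, 37, 24.4 and 31.3 CPM in c-FosWT DMM and 57.3, 55.5, 79.6 and 38.5 CPM in contralateral libraries. For both genes the c-FosWT DMM libraries were below every other library, and the 4 c-FosDCh DMM libraries were close to each other. The log2 fold changes between the DMM groups were 1.01 ± 0.21 for Chrd and 1.05 ± 0.23 for Bambi (edgeR adjusted p = 0.0332 for each).

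The BMP antagonist Grem1, gremlin, had 95.4, 28, 90.4 and 207 CPM in c-FosDCh DMM, 40.1, 17.1 and 37.3 CPM in c-FosWT DMM and 101, 116, 205 and 66 CPM in contralateral libraries. Replicate 2 of c-FosDCh DMM lay within the c-FosWT DMM range (log2 1.74, adjusted p = 0.0744). Chrdl2, a chordin relative, had 24.3, 9.94, 35.9 and 78.8 CPM in c-FosDCh DMM, 12, 2.69 and 9.4 CPM in c-FosWT DMM and 30.8, 24.8, 64.5 and 21.7 CPM in contralateral libraries, with the same library within the c-FosWT DMM range (2.21, adjusted p = 0.0637). Nog, noggin, averaged 9.81 ± 4.73 CPM in c-FosDCh DMM, 3.58 ± 1.9 CPM in c-FosWT DMM and 5.92 ± 1.51 CPM in contralateral libraries (1.45, adjusted p = 0.0545).

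The Id genes encode helix-loop-helix inhibitors and are direct targets of BMP-activated Smads. Id1 (chromosome 2, 152736251 to 152737410, forward strand) had 63.7, 61.3, 86.9 and 49.1 CPM in c-FosDCh DMM, 26.3, 18 and 35.9 CPM in c-FosWT DMM, and 61.8, 50.3, 58.4 and 40.4 CPM in contralateral libraries. Id2 had 40.2, 37.3, 66.8 and 97.5 CPM in c-FosDCh DMM, 35.4, 23.4 and 23.5 CPM in c-FosWT DMM and 44.1, 36.1, 35 and 39.2 CPM in contralateral libraries. Both were higher in c-FosDCh DMM than in c-FosWT DMM (log2 fold changes 1.29 ± 0.26 and 1.14 ± 0.32, edgeR adjusted p = 0.0332 and 0.0441). They differed in where they were highest: within the c-FosDCh DMM group, Id1 was lowest in replicate 4 and Id2 highest there. Id3 averaged 131 ± 28.5 CPM in c-FosDCh DMM, 94.9 ± 16.1 CPM in c-FosWT DMM and 130 ± 20.5 CPM in contralateral libraries (0.46, adjusted p = 0.122).

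**Figure D5:**
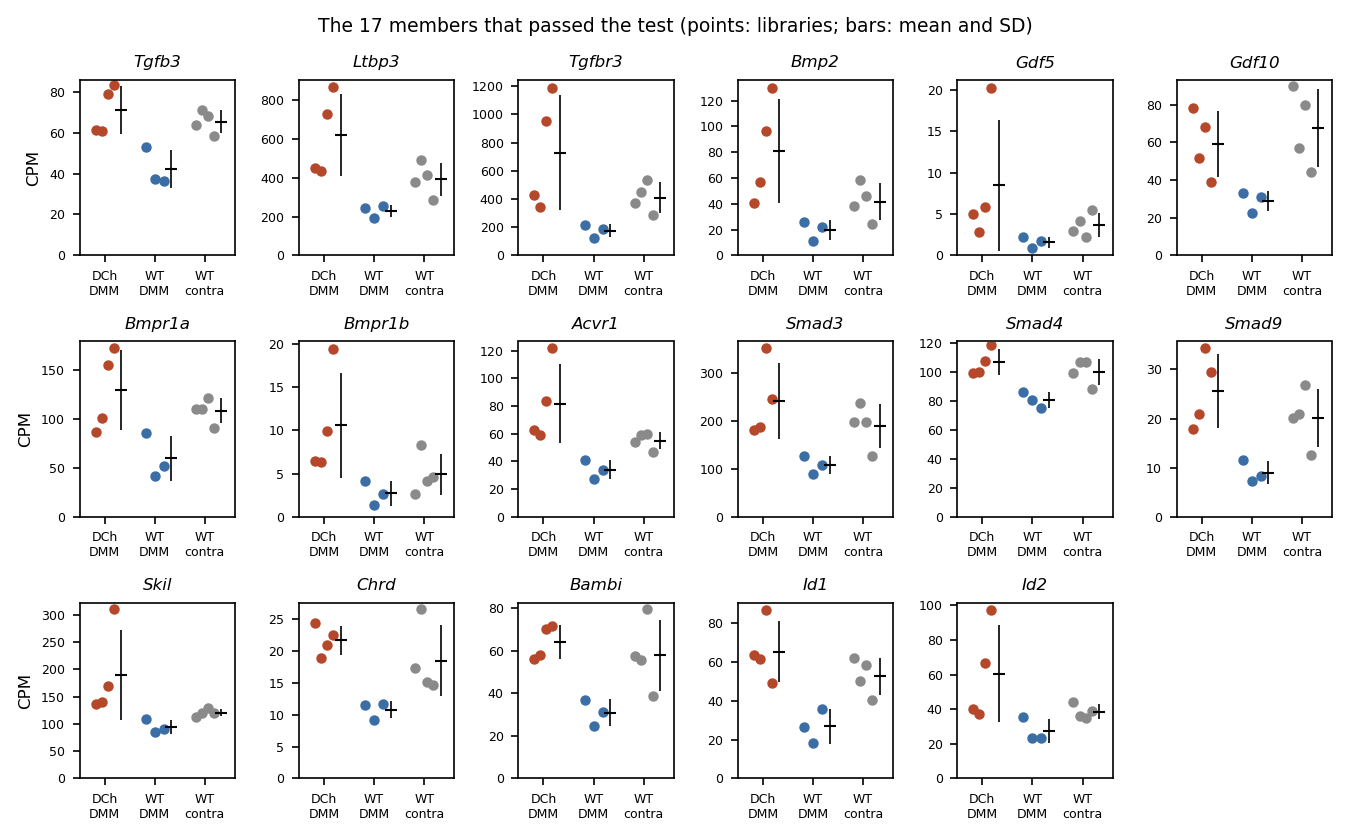
CPM of the 17 members that passed between the DMM groups, 1 panel a gene, with a point per library and the mean and SD beside it; groups run c-FosDCh DMM (4 libraries), c-FosWT DMM (3) and c-FosWT contralateral (4), and each axis starts at 0. For all 17 genes the c-FosWT DMM points lie below the c-FosDCh DMM points.

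Over all members, 23 of 40 had every c-FosDCh DMM library above every c-FosWT DMM library, as did 17.2% of all tested genes, and 0 of 40 had every library below (15.8% of all genes). Before adjustment 32 of 40 had a p under 0.05, against 39% of all genes. With c-FosDCh DMM replicates 3 and 4 left out (decided once the data had been seen), the member median was 0.61 and 0 of 40 passed.

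Of 56 other genes of these pathways, listed for their textbook roles, 53 were tested; 18 were higher in c-FosDCh DMM than in c-FosWT DMM and 0 were lower, against 10.6% and 3.79% of all genes. Of the 53 values 32 were positive and 21 negative (median log2 fold change 0.4). DESeq2 called 20 higher and 4 lower, against 2966 and 2392 of 18125 genes. Without c-FosDCh DMM replicate 1 edgeR called 19 higher and 2 lower, against 2592 and 1857 of 18056 genes. Without replicate 2 it called 21 higher and 1 lower, against 2850 and 1776 of 17949 genes. Among the other pathway genes with the smallest p were Neo1, Rgmb, Twsg1, Ccn2 and Gdf6. Ccn2, a matricellular protein gene induced by TGF-beta, averaged 3185 ± 2721 CPM in c-FosDCh DMM, 371 ± 165 CPM in c-FosWT DMM and 1057 ± 359 CPM in contralateral libraries (log2 3.1 ± 0.71). Gdf6, a close relative of Gdf5, averaged 31.3 ± 29.5, 3.65 ± 1.53 and 11.3 ± 5.91 CPM in the same order (3.09 ± 0.71). Neo1 and Rgmb, a receptor and a BMP coreceptor of the repulsive guidance family, had log2 values of 1.15 ± 0.22 and 1.0 ± 0.21, and Twsg1, a chordin partner, 1.53 ± 0.35. The edgeR adjusted p was 0.0332 for each of these genes, which is the lowest value over all tested genes. Their unadjusted edgeR p ran from 0.000286 (Neo1) to 0.00137 (Gdf6). Like the members, none of these 53 genes passed in the fits without contralateral replicate 1 or 2 or c-FosWT DMM replicate 2 or 3. None passed without c-FosDCh DMM replicate 3 or 4 either. Over all genes 0 passed in these fits, or 1 without contralateral replicate 2. Without contralateral replicate 3, 11 of the other pathway genes passed, against 1355 of 17930 genes.

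Operated and unoperated knees were compared by setting c-FosWT DMM against c-FosWT contralateral libraries. Marrow scores differed too, at 8.71 to 9.49 in c-FosWT DMM and 7.22 to 8.84 in contralateral libraries. What part of a difference goes with marrow content was not tested. All 40 members had a negative log2 fold change, as did 50.9% of all genes, with a median of -0.66 against -0.01 over all genes, but 0 of 40 passed in edgeR's quasi-likelihood test (lowest adjusted p = 0.182), as 0% of all genes did. Before adjustment 20 of 40 had a p under 0.05, against 19.9% of all genes. In 19 of 40 members every c-FosWT DMM library lay below every contralateral library, against 13.1% of all genes, and in 0 of 40 above (10.1% of all genes). DESeq2 called 8 members lower (Bambi, Chrd, Chrdl2, Gdf10, Grem1, Id1, Smad9 and Tgfb3), where it called 4.98% of all genes, and limma-voom called 0.

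The antagonists Chrdl2 and Grem1 had the most negative values after the operation. Chrdl2 averaged 8.03 ± 4.81 CPM in c-FosWT DMM and 35.4 ± 19.7 CPM in contralateral libraries (a log2 fold change of -2.14 ± 0.73), and Grem1 31.5 ± 12.5 and 122 ± 59.4 CPM (-1.95 ± 0.62); the edgeR adjusted p was 0.187 and 0.182. Gdf10 averaged 28.9 ± 5.53 CPM in c-FosWT DMM and 67.7 ± 20.8 CPM in contralateral libraries (-1.23 ± 0.30), Smad9 9.01 ± 2.25 and 20.1 ± 5.88 CPM (-1.16 ± 0.30), and Id1 26.8 ± 8.96 and 52.7 ± 9.55 CPM (-0.98 ± 0.26), each with an adjusted p of 0.182. At the other end Tgfb1 (-0.09 ± 0.16) and Tgfbr1 (-0.08 ± 0.27) differed by less than their errors. In the 3 animals that gave both knees, 27 of 40 members were lower in the DMM knee of each animal, as were 24.4% of all genes. Differences of the members, unlike those of all genes, were rounded to 2 decimals first. Those that rounded to 0 were not counted as lower: Tgfb1 in the replicate 2 pair and Nog in the replicate 1 pair. Unrounded, both were slightly lower in the DMM knee there (-0.249 against -0.246 and -0.051 against -0.048, log2 from the contralateral mean). Animal by animal, Grem1 differed by -1.33, -2.75 and -0.82 and Chrdl2 by -1.35, -3.14 and -1.19 (log2). Among the other pathway genes 43 of 53 values were negative and 0 passed. In the same comparison 9 of 9 erythroid and 10 of 10 granulocyte markers had positive values, and with the marrow score as a covariate the member median was -0.42.

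Comparing c-FosDCh DMM with contralateral cartilage, where genotype and operation both differ, gave no calls among these genes. Of 40 members 0 passed (lowest edgeR adjusted p = 0.584; 0% of all genes passed), 10 had an unadjusted p under 0.05 (8.34% of all genes) and DESeq2 called 0, where it called 0.226% of all genes. The median log2 fold change was 0.14, with 28 values positive (49.7% of all genes); scaling by library totals alone left 19 positive and shifted the median of all genes to -0.17. The largest values were 1.18 ± 0.58 for Gdf5, 1.09 ± 0.48 for Bmpr1b and 1.0 ± 0.43 for Inhba, and the lowest was -0.91 ± 0.31 for Fst. Without c-FosDCh DMM replicate 4 the first 3 were 0.32 for Gdf5, 0.65 for Bmpr1b and 0.64 for Inhba. Skil (0.65 ± 0.24) was the only member with no overlap between these groups, where 2.28% of all genes were above and 2.12% below. Without c-FosDCh DMM replicates 3 and 4 the median was 0.01. The 3 comparisons share libraries, and their values are not independent of each other.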

How the data were processed

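Articular cartilage was cut from the knee with a scalpel, and directional libraries were made from poly(A) RNA, per the labels' protocols. The submitters' processing notes name bcl2fastq 2.19.1.403, STAR 2.6.1a, RSEM, DESeq2 1.22.2 and the build GRCm38; no source used here gives the annotation release or the strand setting of the counting. Each library has a deposited file of raw counts by gene; the 4 read classes that are not genes, with 56.8 to 66.9% of reads, stayed out of library sizes and tests. Symbols, coordinates and merged exon lengths came from GENCODE M21 (GRCm38), which matched 55154 of 55421 identifiers. Exons of 11 members overlap a gene of the other strand (among them Bmp6 with Txndc5 over 224 bases and Acvr2a with Orc4 over 446), so their counts are less certain.

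Counts were fitted with edgeR 4.0.16 in R 4.3.3: filterByExpr, TMM scaling, 1 quasi-likelihood fit with group as the only term over all 11 libraries, two-sided tests, Benjamini-Hochberg adjustment over 18125 genes, and an SE from the fold change and the F statistic (absolute log2 value over root F). The script was tested on simulated data. ± is the SD of CPM (n = 4, 3 and 4 in the order of groups given) or the SE of a log2 fold change. Alternatives used limma 3.58.1 and DESeq2 1.42.0; tables and figures used Python 3.11.15, pandas 2.3.3 and matplotlib 3.10.9. Members that passed in any comparison, and the member with the smallest p in a role with none, are given in full, with other called pathway genes by smallest p; some items are not reported here. The members, lists and tests were chosen with earlier results of these data known. The marker lists, of 10 genes each for erythroid cells and granulocytes, held 1 symbol (Ahsp) that was not used here.

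Replicate numbers of c-FosDCh libraries follow accession order, since 2 carry the same label number; all 4 come from different animals. Titles tie 3 pairs of knees to the same animals (c-FosWT DMM replicates 1, 2 and 3 with contralateral replicates 1, 2 and 4); their deviations from the group means correlated at -0.17, -0.18 and 0.25 over genes. Replicate libraries differed by more than sampling noise (lowest chi-square per degree of freedom 31). Pairs aside, libraries come from separate animals.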

Additional observations from a re-analysis of the deposited data

Results flagged for a closer look

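Among 80 sets of 4 libraries (40 members in 2 groups), 3 held a library set apart from the other 3 by a gap beyond Dixon's 95% critical value; chance gives about 1 in 20. Inhba was at 110 CPM in contralateral replicate 2, where the next highest library had 48.3 CPM. Smad5 was at 105 CPM in contralateral replicate 4, against 119 CPM in the nearest library. Id3 was at 88.3 CPM in c-FosDCh DMM replicate 4, against 140 CPM in the nearest. Contralateral replicate 4 had the highest marrow score of its group (8.84) and c-FosDCh DMM replicate 4 the lowest of its group (4.54). Contralateral replicate 2 was at neither end of its group (7.25, in a range of 7.22 to 8.84).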

How the results depend on the processing

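Against a main count of 2616 genes, 17 members and 18 other pathway genes between the DMM groups, edgeR called 0 of each with either the marrow or the cartilage score as a covariate, in a fit of the 2 groups only, and when c-FosDCh DMM replicates 3 and 4 were omitted (chosen after seeing the data). With no filter on low counts 1443 genes passed, and DESeq2 called 5358 genes and 26 members. Leaving out 1 library at a time gave 0 to 4626 genes, 0 to 24 members and 0 to 22 other pathway genes. Scaling by library totals alone gave 1176 genes higher and 981 lower (1929 and 687 in the main result) and shifted the median of all genes to -0.18; 14 members passed and 36 of 40 were positive. For the operation, DESeq2 called 902 genes, 8 members and 6 other pathway genes where edgeR called 0. For c-FosDCh DMM against contralateral it called 41 genes, and leaving out 1 library gave 0 to 1. With the animal as a replicate block (3 pairs of knees), 0 genes and 0 members passed for the operation, 40 of 40 members were negative and their median was -0.6; the block changed no call. The cause of these changes was not tested. None of the members named below had passed in the comparison in which its sign turned. With the cartilage score as a covariate the sign turned for Tgfb1 (0.03) and Tgfbr1 (0.11) in c-FosWT DMM against c-FosWT contralateral. Without c-FosDCh DMM replicates 3 and 4 the sign turned for Tgfb2 (0.24), Tgfb3 (-0.08), Ltbp1 (0.31), Ltbp2 (0.08), Tgfbr3 (-0.07), Bmp6 (-0.20), Bmp7 (-0.06), Bmpr1a (-0.18), Bmpr2 (-0.13), Smad2 (-0.01), Smad3 (-0.02), Smad9 (-0.03) and Chrdl2 (-1.03) in c-FosDCh DMM against c-FosWT contralateral. With scaling by library totals alone the sign turned for Tgfb3 (-0.06), Bmpr2 (-0.13), Smad2 (-0.05), Smad4 (-0.08), Smad5 (-0.07), Smad7 (-0.04), Chrdl2 (-0.15), Bambi (-0.02) and Id3 (-0.14) in c-FosDCh DMM against c-FosWT contralateral, and for Ltbp4 (-0.04), Acvr2a (-0.03) and Smad1 (-0.10) in c-FosDCh DMM against c-FosWT DMM. With the marrow score as a covariate the sign turned for Tgfb3 (-0.02), Ltbp1 (0.04), Bmpr1a (-0.02), Bmpr2 (-0.09) and Chrdl2 (-0.72) in c-FosDCh DMM against c-FosWT contralateral, and for Tgfbr1 (-0.07) and Acvr2a (-0.02) in c-FosDCh DMM against c-FosWT DMM, and for Tgfbr1 (0.28), Bmp6 (0.03) and Inhba (0.14) in c-FosWT DMM against c-FosWT contralateral. In limma-voom the sign turned for Chrdl2 (-0.20) and Id3 (-0.02) in c-FosDCh DMM against c-FosWT contralateral. Leaving out 1 library at a time, the sign turned in at least 1 fit for Ltbp4 (-0.15 to 0.23) and Smad1 (-0.04 to 0.17) in c-FosDCh DMM against c-FosWT DMM, for Tgfbr1 (-0.14 to 0.03), Inhba (-0.58 to 0.09) and Fst (-0.45 to 0.02) in c-FosWT DMM against c-FosWT contralateral, for Tgfb2 (-0.27 to 0.10), Ltbp1 (-0.41 to 0.14), Ltbp2 (-0.24 to 0.09), Tgfbr2 (-0.08 to 0.08), Bmpr2 (-0.01 to 0.12), Chrdl2 (-0.57 to 0.53), Grem1 (-0.75 to 0.16), Bambi (-0.01 to 0.34) and Id3 (-0.09 to 0.18) in c-FosDCh DMM against c-FosWT contralateral. Depth limited Gdf5 most, with 15 counts in its lowest library.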
